A study of Zea mays with 12 samples.

Results

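Giant cells at 14 days after inoculation were compared with control cells of the same day. The comparison holds the 3 arrays labelled as giant-cell root samples of 14 days and the 3 arrays labelled as control root samples of 14 days, 6 of the 12 arrays of the series. The other 6 arrays are giant and control cells at 21 days, and they enter here as a second set of samples and, in the fit, for the spread between arrays.

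The plants were maize seedlings, given in the labels as a cross of A188 and B73, that were 2 weeks old when they were inoculated with 1000 second-stage juveniles of the root-knot nematode Meloidogyne incognita. Giant cells were cut out of infested roots by laser, with about 5000000 square micrometres or 40 to 60 cells per sample. Control cells came from portions of infested roots that held no nematode, with about 13000000 square micrometres or 75 to 150 cells per sample. Every plant was thus inoculated, and no uninoculated plant served as a control. The labels name 3 biological replicates of each group, do not tie an array to a plant, and do not say which root cell types the control samples held. In such captured samples fewer cells of a type and less RNA per cell cannot be told apart.

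Root-knot nematodes induce a few vascular cells near the root tip to become giant cells, which enlarge, pass through repeated nuclear divisions without dividing and act as the nematode's only food source. Giant cells have dense cytoplasm, thickened walls with ingrowths and a high demand for water, sugar and amino acids, which reach them from the neighbouring vascular tissue. At 14 days the feeding site is still being built and fed from.

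RNA was amplified before hybridization to the Affymetrix maize array, and the values are MAS5 signals, a scaled brightness in arbitrary units in which levels of different genes cannot be set against each other. Median signal of the 6 arrays lay between 185 and 230.

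Of 17621 probe sets besides the manufacturer's controls, 12080 were bright enough to be tested. With 3 arrays a group, the number of arrays sets the precision. Taken over probe sets, which are no independent replicates, the correlation between arrays ran from 0.901 to 0.919 among giant-cell arrays, from 0.844 to 0.928 among control arrays, and from 0.659 to 0.755 between the groups. The first principal component separated the groups and held 62.8% of the variance. The manufacturer's bacterial and phage control transcripts (bio and cre) gave more signal on giant-cell arrays, by 0.58 log2 units. The exact permutation p was 0.1, the smallest that 3 against 3 arrays allow (adjusted p = 0.35 over 7 control measures). These added transcripts are hybridization controls, so scaling to them does not scale to the RNA of a sample. The probe set of 18S ribosomal RNA was brighter by 0.72 (exact permutation p = 0.1). For actin, 3′ over 5′ signal differed by -1.43 on the log2 scale (giant minus control cells), with overlapping arrays (exact permutation p = 0.3). Their part in the results below was not tested.

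A difference was called at a limma adjusted p under 0.05, with log2 of the signal plus an offset of 9.5 and differences taken as giant minus control cells. Giant cells were higher in 1872 probe sets (15.5%) and lower in 1452 (12%), together 27.5%. Counts of calls in the gene lists below are to be read beside these shares. At 2-fold or more the calls were 1300 higher (10.8%) and 1225 lower (10.1%). The deep changes ran downward: 617 probe sets were called at least 4-fold lower and 211 at least 4-fold higher, and at 16-fold the numbers were 107 and 6. The median difference of all probe sets tested was 0.16. Scaled to the added transcripts, the arrays gave 351 higher and 2413 lower, or 12.7% of the calls higher in place of 56.3%, and a median of -0.40, so the balance of rises and falls depends on the scaling. Without replicate 3 of giant cells the numbers were 1179 higher and 906 lower, and without replicate 3 of control cells 1235 higher and 1137 lower. Without both they were 680 and 664. The platform annotation given here names a single gene for 1452 probe sets, which stand for 1108 genes, each taken by its brightest probe set. Of the 790 of these genes that were tested, 105 (13.3%) rose and 155 (19.6%) fell, and the arrays of the groups did not overlap in 46.2%. Of the calls, 20 rises and all 155 falls passed with the added-transcript scaling too. That scaling by construction lowers giant-cell values against control cells, so it could hardly remove a fall. At 4-fold or more there were 15 rises and 85 falls. Genes with several probe sets were checked for disagreement. Of 75 dimmer tested probe sets of called genes, 70 had the same sign and 45 of these were called. The other 5, all of IIG1, were called in the opposite direction (lower, against a rise of 1.16). They stood between -6.27 and -3.30, far larger than that rise. IIG1 is counted among the 105 rises by its brightest probe set alone, so its direction is not settled here. A further 3003 called probe sets carry no gene name.

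Starch synthesis held the largest rise of any named gene. SBE1 (synonyms ae1 and SBEIIb) encodes the starch branching enzyme whose loss gives high-amylose kernels. It had signals of 975, 1032 and 542 on the 3 giant-cell arrays against 20.7, 27.0 and 26.9 on the control arrays. That is a 24.2-fold rise (log2 4.59 ± 0.45 SE, n = 3 arrays per group, limma adjusted p = 6.7e-05). A dimmer probe set of the gene stood at 4.78. AGP2 (Gene ID 542737) encodes a subunit of ADP-glucose pyrophosphorylase, the enzyme that commits glucose to starch. Its signals were 367, 210.4 and 418 in giant cells and 2.77, 108 and 13.6 in control cells, a log2 difference of 3.35 ± 0.72 (adjusted p = 0.0056), and on the log scale the control arrays were spread far wider than the giant-cell arrays.

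Both sh2, a large subunit of the same pyrophosphorylase, and ss1, a soluble starch synthase, rose with every giant-cell array above every control array. ss1 had 174, 297 and 410.3 in giant cells against 73.1, 61.2 and 71.4 in control cells (log2 1.88 ± 0.39, adjusted p = 0.0049). sh2 had 278, 272 and 309 against 98.4, 78.3 and 59.4 (1.77 ± 0.39, adjusted p = 0.0062). The small-subunit gene agpsl1 rose by 1.5 (adjusted p = 0.025), but its call was lost without replicate 1 or 3 of either group (adjusted p up to 0.11).

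Of 16 starch genes matched by name, 7 passed the filter on low signal, and 5 of these rose and 0 fell, with a median difference of 1.77 against 0.16 over all probe sets. All 7 had their giant-cell arrays above all control arrays, which 26.1% of all probe sets had. The tested members that did not pass were sbe1 (Gene ID 542315), a different gene for a branching enzyme, at 1.24 (adjusted p = 0.11) and the small-subunit gene Agpsemzm at 1.23 (0.12). The other 9 members were too dim to test, and in 6 of them (AGPLS3, GBSSIIa, bt1, bt2, du1 and iso3) every giant-cell array lay above every control array. The small-subunit gene bt2 had 45.1, 73.5 and 74.5 in giant cells and 21.5, 23.6 and 24.4 in control cells. GBSSIIa, a granule-bound starch synthase, had 51.2, 74.9 and 96.7 against 15.4, 26.3 and 26.8. The large-subunit gene AGPLS3 had 102, 77.0 and 190.3 against 21.6, 42.6 and 20.4. These genes were picked after their values were seen and carry no test. With the added-transcript scaling 4 starch genes passed, and without both replicate 3 arrays SBE1 was the 1 that did.

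**Figure D1:**
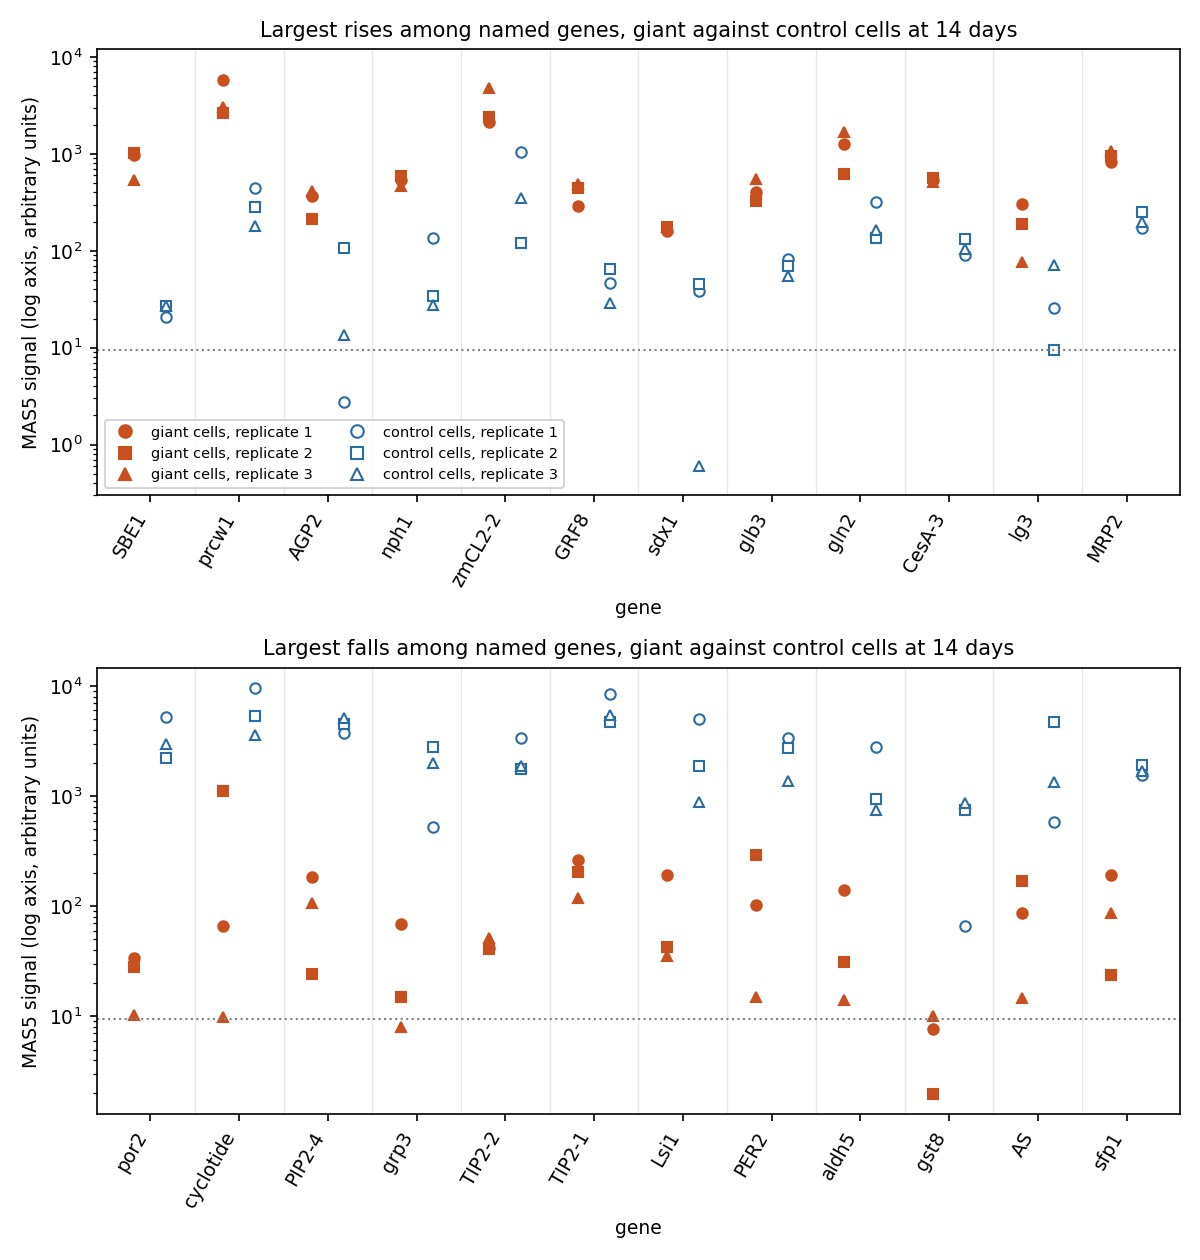
MAS5 signal on a log axis of the 12 named genes with the largest rises (top) and the 12 with the largest falls (bottom) among those called with non-overlapping arrays. Filled symbols are the 3 giant-cell arrays and open symbols the 3 control arrays of 14 days, with one symbol shape per replicate, and the dotted line is the offset of 9.5 added before log2. The 3 giant-cell signals of SBE1 lie between 542 and 1032 and its control signals between 20.7 and 27.0, while por2 lies between 10.4 and 33.7 in giant cells and between 2210 and 5242 in control cells.

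Sucrose cleavage and sugar uptake moved the other way. The 8 tested genes had a median of -1.11, and 5 of them fell while 0 rose. MST1 (Gene ID 542695) is a monosaccharide transporter gene. It had 209, 18.3 and 28.5 in giant cells against 1219.8, 762 and 1016 in control cells, a 16.2-fold fall (log2 -4.01 ± 0.78, adjusted p = 0.0034). Invertases split sucrose into glucose and fructose, ivr2 in the vacuole and incw1 in the cell wall. ivr2 had 13.0, 16.7 and 3.68 against 412, 287 and 125 (-3.69 ± 0.57, adjusted p = 0.0011). incw1 had 316, 280.4 and 159.7 against 792, 909 and 1415 (-2.01 ± 0.39, adjusted p = 0.0032). Sucrose synthases also split sucrose, and both that were called fell by about the same amount. ss2, also named sus1, had 3168, 3833 and 2698 against 6561, 6366 and 7480.0 (-1.08 ± 0.23, adjusted p = 0.005). SH-1 had 1589.7, 1073 and 1794 against 3402, 2892 and 3354 (-1.14 ± 0.29, adjusted p = 0.012), though its dimmer probe sets at -0.78 and -0.87 were not called (adjusted p = 0.21 and 0.26). In these 5 genes every giant-cell array lay below every control array. The third sucrose synthase, sus2, stood at 0.47 (adjusted p = 0.44), and the fructokinase genes frk1 at -0.60 (0.21) and frk2 at -0.40 (0.14).

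Water channels held several of the deepest falls. Aquaporins let water and small solutes cross the plasma membrane (PIP class) or the vacuolar membrane (TIP class). Of 29 matched, 21 were tested, and 12 fell and 0 rose, with a median of -2.33. Those 12 had all giant-cell arrays below all control arrays, as 17.3% of all probe sets had, and the other 9 overlapped.

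The tonoplast gene por2 (Gene ID 541687, synonym TIP2-3) had 33.7, 27.9 and 10.4 in giant cells against 5242, 2210.2 and 2998 in control cells, a 103-fold fall (log2 -6.69 ± 0.48, adjusted p = 5.6e-06). TIP2-2 had 41.5, 40.8 and 51.6 against 3374, 1773 and 1866 (-5.38 ± 0.40, adjusted p = 5.6e-06). TIP2-1 had 263, 205 and 118 against 8496, 4723 and 5479 (-4.95 ± 0.63, adjusted p = 0.00034). All 3 genes of the TIP2 class were among the 12 largest falls of the named genes. The plasma membrane class also held deep falls. PIP2-4 had 184, 24.4 and 108 against 3744, 4489.8 and 5140.2 (-5.60 ± 0.62, adjusted p = 0.00015). PIP1-5 had 530.2, 540.0 and 347 against 5524, 2724 and 4241 (-3.08 ± 0.28, adjusted p = 3.3e-05). Lsi1 (NIP2-1), whose product carries silicic acid into the root in rice, had 192, 42.6 and 35.5 against 5047, 1875 and 892 (-4.72 ± 0.64, adjusted p = 0.00051).

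The falls were graded within the family. Smaller falls were those of pip2-5 (-3.06), PIP1-1 (-2.70), PIP2-6 (-2.61), TIP1-1 (-2.36), pip1-2 (-2.0) and PIP2-1 (-1.28), with adjusted p between 0.00048 and 0.0057. The PIP gene pip2c was bright in both groups and stood at -0.03 (adjusted p = 0.96), with 4380.3, 5201 and 1946 in giant cells and 4250.5, 3316 and 3325 in control cells. A dimmer pip2c probe set was called lower, averaging 21.3 in giant cells and 521 in control cells (-4.46, adjusted p = 0.00068), so the probe sets of this gene disagree. TIP1-2 stood at -2.33 (adjusted p = 0.055), and passed as a fall without replicate 1 of giant cells (0.024) or replicate 2 of control cells (0.040). TIP4-1 was on the other side, at 1.46 (0.08), and passed as a rise without replicate 2 of control cells (0.017). NIP1-1 (-1.47), SIP2-1 (-0.43), por1 (0.27), NIP3-1 (0.29), SIP1-1 (0.58) and PIP1-3 (0.67) did not pass. The probe sets of por1 disagree too, since a dimmer one was called lower, averaging 65.3 in giant cells and 312 in control cells (-2.13, adjusted p = 0.00092). Leaving out single arrays gave 12 or 13 falls, and leaving out both replicate 3 arrays gave 12.

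**Figure D2:**
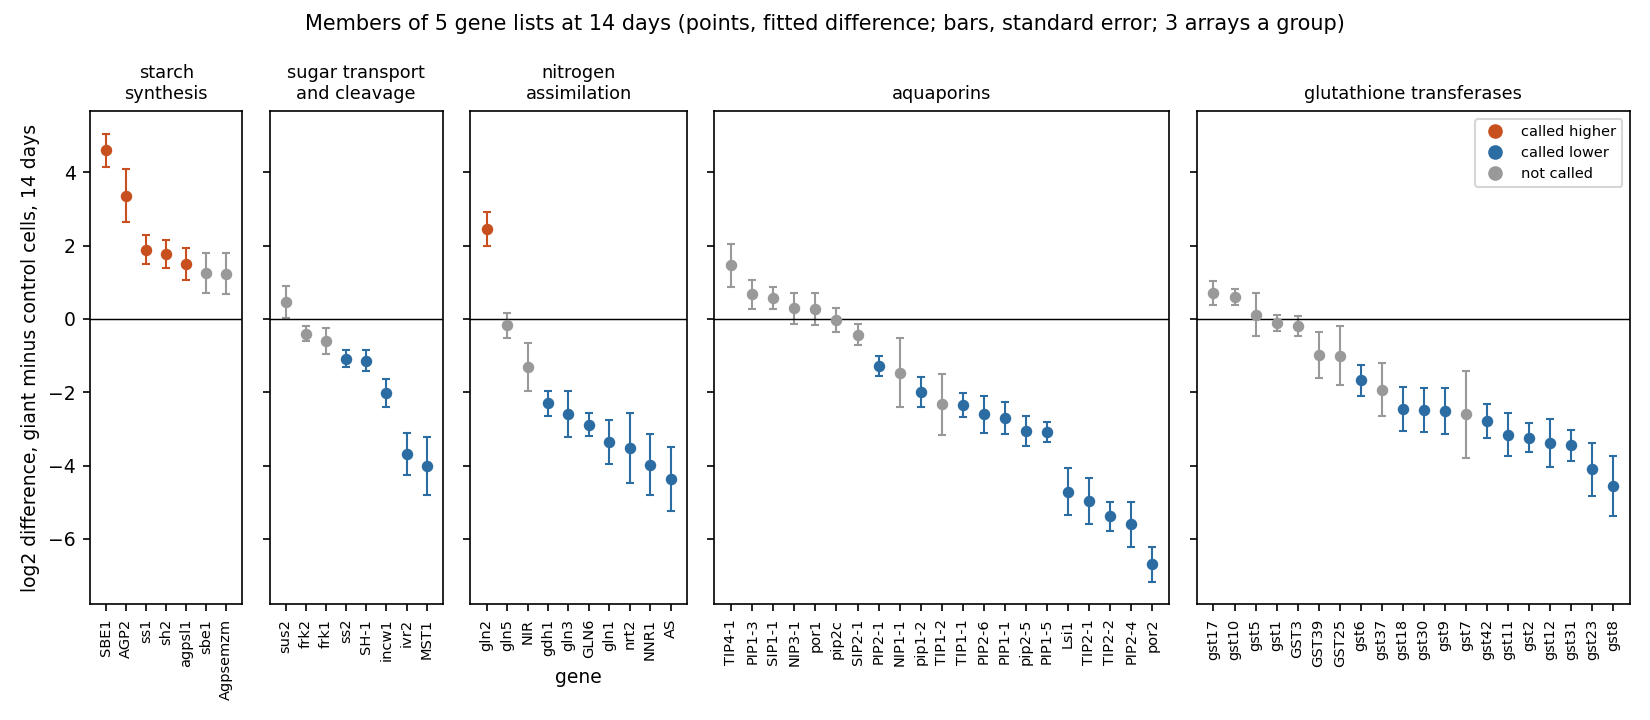
Fitted log2 difference, giant minus control cells at 14 days, for every tested member of 5 gene lists, with standard errors from the fit (3 arrays a group). Orange points were called higher, blue points called lower and grey points not called. Starch genes lie between 1.23 and 4.59, and aquaporins between -6.69 and 1.46.

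Most tested genes of nitrogen uptake and assimilation fell. Among the 10 bright enough to test there were 7 falls, 1 rise and 2 genes without a call, with a median of -2.74. AS encodes asparagine synthetase, which makes the main nitrogen transport compound asparagine. It had 86.6, 171 and 14.8 in giant cells against 578, 4673 and 1334 in control cells (log2 -4.37 ± 0.87, adjusted p = 0.004), though a dimmer probe set of the gene stood at -1.13 (adjusted p = 0.40). NNR1, a nitrate reductase gene, had 36.4, 75.1 and 35.7 against 371, 1188 and 1477 (-3.97 ± 0.84, adjusted p = 0.0051). gdh1, a glutamate dehydrogenase gene, had 395, 449.5 and 361 against 1487, 3337 and 1634 (-2.30 ± 0.34, adjusted p = 0.00085). No array of one group reached the other in these 3 genes. The high-affinity nitrate transporter gene nrt2 fell by 3.52 (adjusted p = 0.016) but did not pass without replicate 1 of giant cells (0.052) or replicate 2 of control cells (0.061). NIR, a nitrite reductase gene, stood at -1.30 (0.15), and passed as a fall without replicate 1 of control cells (0.022).

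Glutamine synthetases, which fix ammonium into glutamine, split by gene. GLN6 fell with little spread among control arrays, with 2678, 1422 and 909.8 in giant cells against 11455, 12019 and 10263 in control cells (-2.88 ± 0.31, adjusted p = 0.00013). gln1 had 52.6, 60.7 and 222 against 569, 1288 and 1445 (-3.36 ± 0.61, adjusted p = 0.0023), and gln3 fell by 2.60 (0.0097). The opposite was seen for gln2 (synonym gs1-2), with 1250.0, 624 and 1678 against 318, 136 and 164 (2.45 ± 0.46, adjusted p = 0.003). gln5 stood at -0.17 (adjusted p = 0.73). Without both replicate 3 arrays gln2 still rose and 4 of the nitrogen falls passed.

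Glutathione transferases attach glutathione to reactive or foreign compounds. Of 31 matched, 20 were tested, and 11 fell and 0 rose, with a median of -2.48. gst2 (Gene ID 542311, synonym GSTIV) had 531, 419 and 835 in giant cells against 5174, 3698 and 8499.6 in control cells (-3.24 ± 0.39, adjusted p = 0.00026). gst31 had 111, 69.1 and 35.3 against 569.8, 1021 and 919 (-3.45 ± 0.43, adjusted p = 0.00029), and its 3 dimmer probe sets were called lower as well. Some members were at or near the offset in giant cells, where the fold is compressed. gst8 had 7.64, 1.98 and 10.2 against 66.2, 755 and 870.1 (-4.56 ± 0.83, adjusted p = 0.0023). gst23 had 85.4, 8.15 and 9.51 against 256, 926 and 639 (-4.10 ± 0.73, adjusted p = 0.0021), and its replicate 1 of giant cells stood above the other two. gst12 (-3.38), gst11 (-3.15), gst42 (-2.78), gst9 (-2.52), gst30 (-2.49), gst18 (-2.46) and gst6 (-1.67) also fell, with adjusted p between 0.0016 and 0.013. In contrast, gst1 (-0.11, adjusted p = 0.73), GST3 (-0.19, 0.62) and gst5 (0.12, 0.90) had overlapping arrays. Without both replicate 3 arrays 8 of the family passed.

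Other antioxidant genes did not share this. Of 10 tested, 2 rose and 0 fell, against 15.5% and 12% of all probe sets (median 0.15). apx, an ascorbate peroxidase gene, had 3221, 3583 and 4648 in giant cells against 1603, 1511 and 2273 in control cells (1.09 ± 0.21, adjusted p = 0.0037). The superoxide dismutase gene sod3 rose by 0.84 (0.0094). Neither passed with the added-transcript scaling, at 0.52 and 0.27.

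Oxylipin genes, which make jasmonate and related defence signals from membrane lipid, fell in 4 of 9 tested members and rose in 0 (median -1.04). The allene oxide cyclase gene aoc1 was not called by its brightest probe set (0.51), while a dimmer one was called lower (-1.46). The lipoxygenase gene lox3 had 155, 255 and 163 in giant cells against 853, 1126 and 2346 in control cells (-2.76 ± 0.38, adjusted p = 0.00056). Another lipoxygenase gene, lox1, had 42.1, 54.6 and 42.8 against 410.3, 179 and 336 (-2.43 ± 0.42, adjusted p = 0.0019). opr5, an oxo-phytodienoate reductase gene, fell by 2.55 (0.00092). Its relative opr1 fell by 3.98 (0.022), and did not pass without replicate 3 of giant cells or replicate 2 or 3 of control cells (adjusted p up to 0.093).

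Class III peroxidases, secreted enzymes of wall cross-linking, fell in all 3 tested members. PER2 had 102, 289.5 and 14.9 in giant cells against 3385, 2719.6 and 1368 in control cells (-4.64 ± 1.03, adjusted p = 0.0065). pmPOX1 stood at -1.11 (0.0093) and ap1 at -2.98 (0.012), and ap1 did not pass without replicate 3 of giant cells (0.053). Without both replicate 3 arrays PER2 was the 1 that passed. Among 6 phenylpropanoid genes 2 fell and 0 rose (median -1.0). a2, an anthocyanidin synthase gene, fell by 2.21 (0.00099), and ccr2, a cinnamoyl-CoA reductase gene of lignin synthesis, stood at -2.12 (0.023). ccr2 did not pass without replicate 3 of giant cells or replicate 1 or 2 of control cells (adjusted p up to 0.093). PAL1, phenylalanine ammonia lyase, and 4CL, coumarate-CoA ligase, stood at -0.96 (adjusted p = 0.099) and -1.05 (0.096), and both passed as falls without replicate 2 of giant cells (0.045 and 0.040) and with the added-transcript scaling.

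Among 6 pathogenesis-related genes 1 rose and 2 fell, against 15.5% and 12% of all probe sets. The gene named cyclotide, after a class of small ring-shaped defence peptides, had 65.9, 1109 and 9.84 in giant cells against 9544, 5374 and 3599 in control cells (-5.60 ± 1.41, adjusted p = 0.012). Replicate 2 of giant cells was far above the other two, and the call was lost without replicate 3 of giant cells (0.056). hdr10 (synonym hir1), of the hypersensitive-induced reaction family, had 2537, 2917 and 2707 against 931, 700.4 and 538, a 3.81-fold rise (1.93 ± 0.23, adjusted p = 0.00022). Its family member hir3 fell by 2.87 (0.0095). The β-glucosidase gene glu1, which frees benzoxazinoid defence compounds from their glucosides, had 1344, 1407 and 854 against 13313, 8609 and 11763 (-3.22 ± 0.65, adjusted p = 0.0042). igl1, whose enzyme releases free indole, rose by 0.98 (0.017), but did not pass without replicate 3 of either group (0.068 in both cases) or with the added-transcript scaling (0.41).

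**Figure D3:**
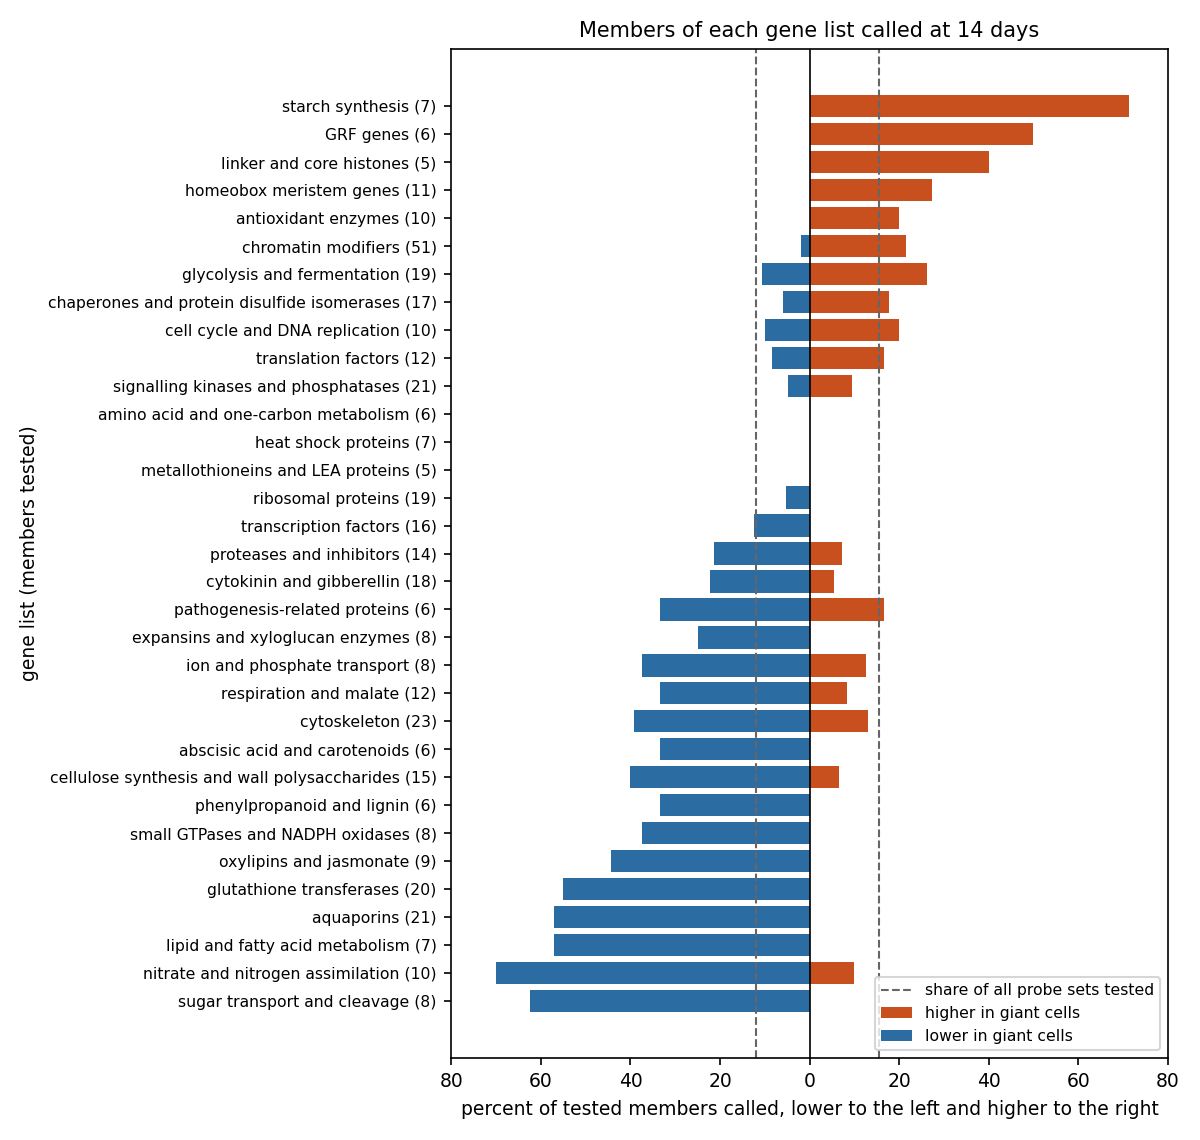
Percent of the tested members of each gene list that were called at 14 days, higher in giant cells to the right and lower in giant cells to the left, for lists with at least 5 tested members (number in brackets). Dashed lines are the shares of all 12080 probe sets, 15.5% higher and 12% lower. Starch synthesis has 5 of 7 members higher, and nitrogen assimilation 7 of 10 and aquaporins 12 of 21 members lower.

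Wall genes moved in both directions. prcw1, a proline-rich cell wall protein gene, had 5790.4, 2656 and 3065 in giant cells against 445, 279.7 and 179 in control cells, a 12.4-fold rise (3.64 ± 0.46, adjusted p = 0.00035). The glycine-rich protein gene grp3 had 68.6, 15 and 8.07 against 527, 2817 and 2012 (-5.49 ± 0.64, adjusted p = 0.00021). Of 15 genes for cellulose and other wall polysaccharides, 1 rose and 6 fell (median -0.93). The riser was CesA-3, a cellulose synthase gene, with 534, 569 and 512 against 90.9, 133 and 104 and little spread in either group (2.22 ± 0.26, adjusted p = 0.00022).

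The cellulose synthase genes of secondary walls, cesa10, cesa11 and CesA12, fell and shared a pattern in which replicate 2 was the highest giant-cell array. cesa10 had 15.2, 233 and 19.3 in giant cells against 1175, 565 and 681 in control cells (-3.80 ± 1.01, adjusted p = 0.015). cesa11 had 36.1, 259 and 0.972 against 651, 528 and 419 (-3.41 ± 0.90, adjusted p = 0.015). CesA12 had 46.3, 258 and 9.58 against 831, 527 and 348 (-3.05 ± 0.90, adjusted p = 0.024). Their calls rested on few arrays. Without replicate 3 of giant cells none of the 3 passed (0.062, 0.054 and 0.10). Without replicate 1 of giant cells cesa10 (0.057) and CesA12 (0.064) did not, and CesA12 also failed without replicate 1 (0.064) or 2 (0.060) of control cells. CesA-8 stood at -1.61 (0.025), CesA-2 at -1.27 (0.038), and bk2, a COBRA-like gene of wall strength, at -2.64 (0.013). The calls of CesA-8 and CesA-2 were removed by 4 and 5 of the 6 single arrays (adjusted p up to 0.081 and 0.13), and none of the 6 falls passed without both replicate 3 arrays. CesA-4, which was not called with all arrays (-0.93, adjusted p = 0.12), was the 1 member that passed as a fall there (0.016). With the added-transcript scaling 9 members were lower.

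Expansins, which loosen growing walls, fell in 2 of 8 tested members and rose in 0 (median -0.70). expa1 had 2.24, 8.36 and 18.6 in giant cells against 103, 146 and 139 in control cells (-2.93 ± 0.59, adjusted p = 0.0041). EXPA5 fell by 2.15 (0.04) and was lost without replicate 2 or 3 of giant cells or replicate 1 or 2 of control cells (adjusted p up to 0.14). expA4 had 917, 210.0 and 575 against 318, 262 and 113 (adjusted p = 0.12), and passed as a rise without replicate 2 of giant cells (0.023). Of 5 members too dim to test, 3, picked after their values were seen, had every giant-cell array below every control array. Among the probe sets tested 17.3% had this, and the share among those too dim to test was not taken. expB4 had 3.04, 2.66 and 4.62 in giant cells against 119, 95.0 and 66.1 in control cells. expB5 had 0.939, 1.36 and 2.36 against 66.1, 112 and 69.8. expB3 had 31.7, 3.52 and 3.37 against 45.4, 51.3 and 117.

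Cytoskeleton genes leaned downward, with 9 of 23 lower, 3 higher and a median of -0.57. Tubulins, the subunits of microtubules, made up 5 of the falls. tua6 had 1481, 1800.1 and 1639.9 in giant cells against 7866, 5092 and 4667 in control cells (-1.80 ± 0.26, adjusted p = 0.00071). tub4 had 179, 483 and 159.6 against 2159, 1184 and 1031 (-2.47 ± 0.48, adjusted p = 0.0033). tub3 (-2.08, 0.0074), tub5 (-1.79, 0.006) and tua5 (-0.84, 0.048) fell too, tua5 with a call that any of 5 single arrays removed (adjusted p up to 0.16). The β-tubulin gene TUBB2 went the other way, with 573, 584 and 678 against 343, 274 and 186 (1.20 ± 0.37, adjusted p = 0.03), a call that 5 single arrays removed too (up to 0.11).

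Kinesins are the motors that run on microtubules. kin11 had 24.9, 26.2 and 90.8 in giant cells against 317, 335 and 280.1 in control cells (-2.68 ± 0.43, adjusted p = 0.0012). KIN13 had 13.2, 28.0 and 7.73 against 105, 223 and 379 (-3.15 ± 0.53, adjusted p = 0.0015). KIN6 (-1.84) and KIN9 (-0.89) fell with calls that were lost without replicate 3 of giant cells (0.055 and 0.069), and kin15 (0.78) rose with one that 4 single arrays removed (up to 0.15). The profilin gene PRO4, of actin turnover, rose by 0.56 (0.031), and 4 single arrays removed that call too (up to 0.12). With the added-transcript scaling 14 members of the list were lower and 0 higher, and PRO4 turned to -0.02.

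Glycolysis and fermentation genes rose in 5 of 19 tested members and fell in 2 (median 0.44). GAPC1, the cytosolic glyceraldehyde phosphate dehydrogenase, had 7103, 8319.8 and 14826 in giant cells against 3843, 3775 and 4265 in control cells (1.27 ± 0.25, adjusted p = 0.0033), while a dimmer probe set stood at 0.51 (adjusted p = 0.35). The alcohol dehydrogenase gene adh1, induced by low oxygen in maize, had 5404, 9917 and 7679.9 against 1016, 2014 and 4142 (1.86 ± 0.50, adjusted p = 0.016). Its call was lost without replicate 2 of giant cells (0.056) or replicate 1 of control cells (0.051). eno2, an enolase gene, GAPN and the phosphofructokinase gene pfk1 rose by 0.60, 1.01 and 1.42, calls that 3 to 5 single arrays removed (adjusted p up to 0.14). None of these 5 rises passed with the added-transcript scaling, and 2, GAPC1 and adh1, passed without both replicate 3 arrays. Both fallers were aldehyde dehydrogenases. aldh5 had 139.9, 31.0 and 14.1 against 2800.0, 935 and 751 (-4.59 ± 0.92, adjusted p = 0.004). rf2c had 45.7, 71.4 and 25.9 against 715, 519 and 607 (-3.51 ± 0.47, adjusted p = 0.00045).

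Of 12 tested genes of respiration and malate metabolism, 4 fell and 1 rose (median -0.56), and with the added-transcript scaling 8 fell. Alternative oxidases let electrons bypass the later steps of the respiratory chain. Aox had 47.1, 24.8 and 21.4 in giant cells against 253, 429 and 439 in control cells (-3.25 ± 0.53, adjusted p = 0.0014). aox1 had 106, 142 and 80.3 against 459, 464 and 545 (-2.10 ± 0.39, adjusted p = 0.0026). vdac2, a channel of the mitochondrial outer membrane, was tight within each group, with 406, 339.8 and 317 against 1317, 1368 and 1248 (-1.87 ± 0.32, adjusted p = 0.0019). The ADP/ATP carrier gene ANT1 fell by 1.08 (0.011). The riser, CYTMDH, encodes a cytosolic malate dehydrogenase and no part of the chain (0.92, adjusted p = 0.01, and 0.34 with the added-transcript scaling, where it did not pass).

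Rises were found among growth-regulating and nuclear genes. GRF genes encode transcription factors of cell proliferation and GIF genes their partners, and 3 of 6 tested rose with 0 lower (median 0.98). GRF8 had 292, 448 and 484 in giant cells against 47.0, 65.5 and 28.9 in control cells, a 7.48-fold rise (2.90 ± 0.40, adjusted p = 0.00054), and a dimmer probe set stood at 1.57 (0.020). GRF4 had 287, 335 and 417 against 174, 141 and 93.8 (1.31 ± 0.29, adjusted p = 0.0064). GRF2 rose by 1.34 (0.031) and was lost without replicate 1 or 3 of giant cells or replicate 3 of control cells (adjusted p up to 0.13). GRF12 had 233, 284 and 189.7 against 86.0, 405 and 84.8 (adjusted p = 0.32), and passed without the high replicate 2 of control cells (0.0099). GIF2 (0.17) and GIF3 (0.11) had overlapping arrays. With the added-transcript scaling, and likewise without both replicate 3 arrays, GRF8 was the 1 member that passed.

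Homeobox and related meristem genes rose in 3 of 11 tested members and fell in 0, against 15.5% and 12% of all probe sets (median 0.18). lg3 belongs to the knotted class, which keeps meristem cells undifferentiated, and rs2 represses genes of that class. lg3 had 302, 191 and 76.5 in giant cells against 25.8, 9.50 and 71.5 in control cells (2.21 ± 0.66, adjusted p = 0.026), with replicate 3 of both groups nearly equal. Its call was lost without replicate 1 or 2 of either group (adjusted p up to 0.099). rs2 had 143, 168 and 137 against 67.3, 30.2 and 25.5 (1.74 ± 0.46, adjusted p = 0.014, and 0.054 without replicate 3 of control cells). HB133 (synonym rld1), of the HD-ZIP III class that sets leaf polarity, had 799, 719 and 721 against 379, 350.3 and 279 (1.14 ± 0.29, adjusted p = 0.012). These 3 did not pass with the added-transcript scaling, at 1.77, 1.24 and 0.57, and lg3 alone passed without both replicate 3 arrays. Hb2 was matched to the list by its name only and may not belong there, though it is counted among the 11 and in their median. It stood at -2.07 (adjusted p = 0.053, and passed as a fall without replicate 2 of giant cells or replicate 1 of control cells).

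Chromatin genes rose in 11 of 51 tested members and fell in 1, against 15.5% and 12% of all probe sets, with a median of 0.46. hda113, a histone deacetylase gene, had 1350.5, 1727 and 1537 in giant cells against 522, 497 and 400.0 in control cells (1.68 ± 0.22, adjusted p = 0.00037). vef101, of the Polycomb group that keeps genes silent, had 1495, 1808 and 1401 against 744, 477 and 549 (1.41 ± 0.24, adjusted p = 0.0017). The deacetylase genes hda106 (1.51, 0.0091), hda110 (0.99, 0.011) and hdt103 (0.75, 0.0093) rose as well, and 3 dimmer probe sets of hdt103 were called higher. The other 6 rises, those of dmt106, hac108, hda102, met4, nfd110 and sdg113, lay between 0.71 and 1.09 and were each removed by 2 or more single arrays. met5 fell by 1.07 (0.04) with overlapping arrays, and 4 single arrays removed its call (up to 0.16). Leaving out single arrays gave 6 to 12 rises, and leaving out both replicate 3 arrays gave 3. With the added-transcript scaling 1 rose, hda113 at 1.11, and 4 fell.

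Of 5 histone genes 2 rose and 0 fell (median 0.82). The linker histone gene hon101 had 2494, 2240.0 and 3904 in giant cells against 1150.0, 752 and 1194 in control cells (1.46 ± 0.27, adjusted p = 0.0024). his1a rose by 0.82 (0.032), a call lost without replicate 1 or 3 of giant cells or replicate 2 or 3 of control cells (adjusted p up to 0.12). The tested cell cycle genes showed no common direction, with 2 of 10 higher and 1 lower, against 15.5% and 12% of all probe sets. orc1, a subunit of the complex that marks replication origins, had 501, 487 and 487 against 321, 314 and 196 (0.84 ± 0.24, adjusted p = 0.02). RBR1, a retinoblastoma-related brake on cell division, had 699, 488 and 440.1 against 301, 341 and 205 (0.92 ± 0.27, adjusted p = 0.026). PCNA, the sliding clamp of DNA replication, overlapped between the groups, with 446, 248 and 234 against 401, 952 and 898 (-1.22 ± 0.40, adjusted p = 0.04). Each of these 3 calls was lost without replicate 3 of control cells and at least 1 further array (adjusted p up to 0.13), and neither rise passed with the added-transcript scaling. A further 10 cell cycle members were too dim to test. In 3 of them, cyc1, cyc3 and Rad51A2, every giant-cell array lay below every control array, in 0 above, and 7 overlapped. cyc1 had 0.691, 2.43 and 6.30 in giant cells against 14.0, 27.4 and 44.2 in control cells.

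Of 19 ribosomal protein genes 1 fell, rpl30 (-1.09, adjusted p = 0.011), and 0 rose (median -0.33), though 7 fell with the added-transcript scaling. Of 12 translation factor genes 2 rose and 1 fell, near the 15.5% and 12% of all probe sets (median 0.17). The elongation factor genes elfa2 (0.70) and elfa3 (0.68) each had 4 dimmer probe sets between 0.56 and 0.72. Neither passed without replicate 3 of giant cells (0.066 and 0.11), nor did elfa3 without replicate 1 (0.073) or 2 (0.069) of control cells. TIF fell by 1.12 (0.018), and was lost without replicate 1 or 3 of giant cells or replicate 3 of control cells (adjusted p up to 0.076). Protein disulfide isomerases fold secreted proteins. The chaperone list that holds them had 3 of 17 higher and 1 lower, against 15.5% and 12% of all probe sets. pdi3 (1.02), pdi4 (0.86) and pdi12 (0.68) rose and pdi6 (-0.66) fell, each with a call that at least 3 single arrays removed (adjusted p up to 0.16), and with the added-transcript scaling 0 rose and 6 fell.

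Genes of hormone transport, synthesis and signalling were mixed. The gene aic1 (synonym aux1), whose product carries auxin into cells, was below the offset on all giant-cell arrays, at 1.5, 0.904 and 2.84, against 136, 46.5 and 649.9 on control arrays (-3.96 ± 0.73, adjusted p = 0.0025), so its fold is compressed. AO1 and AO2 are aldehyde oxidase genes, a family that includes the last enzyme of abscisic acid synthesis. AO1 had 69.3, 72.8 and 32.2 in giant cells against 660.0, 340.3 and 534 in control cells (-2.96 ± 0.36, adjusted p = 0.00026). AO2 had 92.3, 122 and 39.3 against 681, 898 and 849 (-3.23 ± 0.41, adjusted p = 0.00034). Of 18 cytokinin and gibberellin genes 4 fell and 1 rose (median -0.55). HP1, a phosphotransfer protein of cytokinin signalling, had 221, 273 and 148 against 543, 900.1 and 783 (-1.76 ± 0.30, adjusted p = 0.0018). ciszog1, which stores zeatin as a glucoside, had 23.8, 25.5 and 19.3 against 221, 167 and 119 (-2.43 ± 0.48, adjusted p = 0.0037). The response regulator genes crr1 (-2.48, 0.018) and RR6 (-2.17, 0.042) fell, crr1 with a call lost without replicate 3 of giant cells (0.060) and RR6 with one that 5 single arrays removed (up to 0.15).

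The hormone genes that rose were the auxin-binding protein gene abp1 (0.97, 0.033), the phosphotransfer gene HP3 (0.72, 0.046) and acco20, an ACC oxidase gene of ethylene synthesis. acco20 had 932, 1139.7 and 454 in giant cells against 429.8, 147 and 162 in control cells (1.81 ± 0.50, adjusted p = 0.019). Each of these 3 calls was removed by 4 or 5 single arrays (adjusted p up to 0.15) and by the added-transcript scaling. ACO, matched to the ethylene list like acco20, was too dim to test and lay the other way. It had 4.09, 7.06 and 7.35 in giant cells against 29.3, 102 and 364 in control cells.

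Genes of ion transport fell in 3 of 8 tested members and rose in 1. The plasma membrane proton pump gene mha4, which powers uptake into root cells, had 2733, 3206 and 2220.0 in giant cells against 5969.9, 10505 and 10010.3 in control cells (-1.67 ± 0.29, adjusted p = 0.002). The phosphate transporter gene pht1 (-1.91, 0.042) and the vacuolar proton pump gene vpp3 (-0.70, 0.018) fell with calls that 5 and 3 single arrays removed (up to 0.14 and 0.069). The potassium channel gene kch4 had 182, 317 and 232 against 89.6, 73.7 and 13.5 (2.11 ± 0.56, adjusted p = 0.015), a rise lost without replicate 2 of giant cells (0.055) or replicate 3 of control cells (0.053).

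Among lipid genes 4 of 7 fell and 0 rose (median -1.21). FAD8 and fad7 encode ω-3 fatty acid desaturases, and in both replicate 2 of giant cells stood close to the control arrays. FAD8 had 303, 1880.0 and 405 in giant cells against 4445, 2809 and 4953 in control cells (-2.66 ± 0.67, adjusted p = 0.012). fad7 had 403, 1682 and 382 against 2372, 1465 and 2973 (-1.75 ± 0.49, adjusted p = 0.019), with overlapping arrays. Each of the 4 lipid calls, those of FAD8, fad7, gl8 (-1.21) and the phospholipase gene PLC (-1.21), failed without replicate 3 of giant cells (0.052 to 0.083), and none passed without both replicate 3 arrays. Single arrays of the other replicates also removed the calls of FAD8, fad7 and gl8 (adjusted p up to 0.11 for gl8).

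Regulators and proteases gave single changes. The bZIP transcription factor gene OBF1 had 555, 589 and 431 in giant cells against 979.8, 2073 and 2101 in control cells (-1.62 ± 0.30, adjusted p = 0.0024), with both dimmer probe sets called lower. The cystatin gene cc3, which inhibits cysteine proteases, rose by 1.59 (adjusted p = 0.0044), and the cysteine protease gene ccp2 fell by 1.69 (0.0078). Of 8 small GTPase and NADPH oxidase genes 3 fell and 0 rose. ypt2, of vesicle traffic, fell by 1.41 (0.0095), and rop6, of polar growth, stood at -1.46 (0.026), a call removed by 3 single arrays (up to 0.11). nph1, the blue-light receptor kinase phototropin, had 532, 586 and 467 against 136, 33.9 and 27.8 (3.12 ± 0.65, adjusted p = 0.005).

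Other large changes stood alone. sdx1 (synonym sxd1), the tocopherol cyclase gene whose loss blocks sucrose export from maize leaves, had 161, 175 and 174 in giant cells against 38.9, 45.1 and 0.60 in control cells (2.59 ± 0.61, adjusted p = 0.0088), with replicate 3 of control cells below the offset. The globulin gene glb3 had 408, 329 and 545 against 81.6, 70.1 and 55.5 (2.46 ± 0.61, adjusted p = 0.011). MRP2 was tight within each group, with 821, 943 and 1057 against 171, 252 and 196 (2.15 ± 0.25, adjusted p = 0.00021). In zmCL2-2 the control arrays were spread widely, with 2111, 2412 and 4768 against 1052, 121 and 349.6 (2.98 ± 0.72, adjusted p = 0.01). sfp1 fell, with 192, 23.9 and 86.7 against 1549, 1916 and 1697 (-4.32 ± 0.71, adjusted p = 0.0014).

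Probe sets without a gene name held the extremes of the whole array. Zm.4358.1.S1_at had 1.99, 18.2 and 1.86 in giant cells against 4157, 5292 and 2881 in control cells (log2 -8.03). Zm.1835.2.A1_at stood at -7.58. The largest rise was that of Zm.12640.1.S1_at, with 257, 4999 and 4861 against 44.6, 61.6 and 16.2 (5.34, adjusted p = 0.021), and replicate 1 of giant cells was far below the other two. Zm.6405.1.A1_at followed at 4.8.

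Markers of other root tissues moved with the groups in part. Signals were summed within each list, and such a sum is weighted toward its brightest members. The summed signal of 4 xylem markers was 366, 1017 and 308 in giant cells and 3022, 1773 and 1596 in control cells. Lower were 3 of the 4, the secondary-wall cellulose synthases, while LAC1, a laccase gene, was not called (0.40, adjusted p = 0.48). The 3 genes listed for meristem and cap summed to 487, 390 and 225 in giant cells against 126, 60.4 and 126 in control cells. Most of that sum came from lg3 and rs2, which were higher. Since rs2 represses genes of the knotted class, the sum is no measure of meristem cells. The third, kn1, was too dim to test and overlapped, with 41.0, 31.1 and 11.5 in giant cells against 32.4, 20.7 and 29.0 in control cells. Lsi1 was the 1 marker matched for endodermis and cortex and was lower. The 9 root hair and epidermis markers summed to 2576, 1823 and 1605 against 2056, 2174 and 2389, with overlapping arrays and 1 of 5 tested, rop6, lower. The bright members expB8 and rbohB made up most of that sum. Of the 4 too dim to test, expB3, expB4 and expB5, given above among the expansins, had every giant-cell array below every control array. The 12 markers of photosynthetic tissue summed to 633, 621 and 397 against 685, 549 and 571. The median signal of 4 of these was under the offset, and the 1 tested, C4ppdkZm1, stood at -0.29 (adjusted p = 0.57). The phloem sucrose transporter gene sut1 was too dim to test, with 44.3, 19.8 and 3.51 against 26.8, 15.9 and 38.2. The part of cell type in the results above was not tested.

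The heat shock genes set replicate 3 of both groups apart. Small heat shock proteins and HSP101 protect or refold proteins and are induced by heat and other stress. Signals of the 8 matched genes summed to 13004, 13804 and 24284 in giant cells against 7981, 15253 and 43024 in control cells. That sum is weighted toward its brightest members, hsp70-4 and hsp70-5. hsp101 had 371, 656 and 3581 in giant cells against 1.29, 57.6 and 2563 in control cells. hsp22 had 215, 259.8 and 2816 against 60.2, 112 and 7003. hsp18f had 315, 217 and 2373 against 51.4, 59.2 and 6473. In each, replicate 3 was the highest array of its group, and replicates 1 and 2 were higher in giant cells. hsp18c had 163, 82.9 and 365 against 14.6, 35.3 and 2316. HSP18 had 223, 39.1 and 479 against 36.7, 200.1 and 6501. Replicate 3 was again the highest in both groups. The HSP70 genes differed less between arrays, hsp70-4 with 5505, 6167 and 7347 against 4434, 7882 and 9496 and hsp70-5 with 6117, 6295 and 5772 against 3379.9, 6878 and 7500.2.

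Of 7 heat shock genes tested 0 passed and 0 had an unadjusted p under 0.05, with limma adjusted p from 0.15 for hsp101 to 0.83 for hsp18c. Without both replicate 3 arrays, 2 passed as higher in giant cells. They were hsp101, at 4.23 (adjusted p = 0.016), against 2.98 ± 1.47 with all arrays, and hsp18f, at 2.07 (0.037), against 0.90 ± 1.42. Without replicate 3 of control cells alone hsp101 (0.0053), hsp18f (0.022) and hsp18c (0.035) passed. Both replicate 3 arrays were set against the other 4 arrays of 14 days across all probe sets tested. On both, 29 probe sets were at least 2-fold higher, and 6 at least 2-fold lower, than on any of the other 4. For replicate 1 the numbers were 2 and 11, and for replicate 2 they were 0 and 0. None of the 29 was called between the groups, but their choice makes the groups overlap, so a call was hardly possible.

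**Figure D4:**
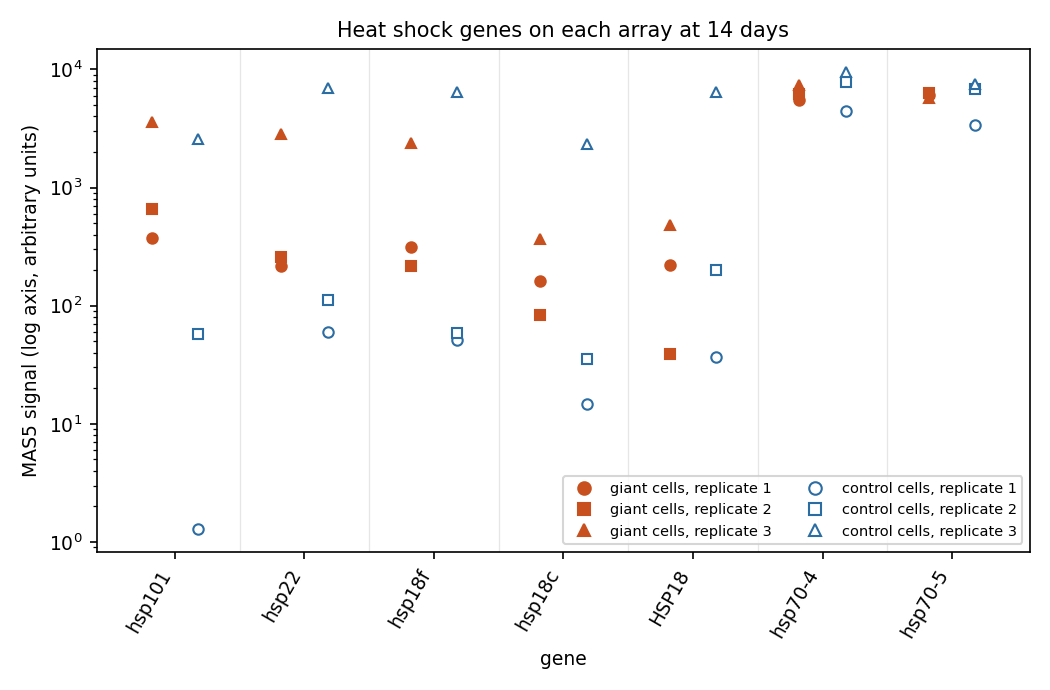
MAS5 signal on a log axis of the 7 tested heat shock genes on each array of 14 days, giant cells filled and control cells open, with one symbol shape per replicate. Triangles, replicate 3, are the highest of their group for every gene but hsp70-5, with hsp22 at 2816 in giant cells and 7003 in control cells.

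Set beside the effect at 21 days, which rests on other arrays and other controls, the 14-day effect kept its direction in most called probe sets. Of 1872 higher at 14 days, 1803 (96.3%) were also on the higher side at 21 days, where 57% of all probe sets were. Of 1452 lower at 14 days, 1403 (96.6%) were on the lower side, against 43%. Called on both days were 739 higher, which is 39.5% of the 14-day and 63.5% of the 21-day list, and 758 lower, which is 52.2% and 71.9%. At 21 days 1163 (9.63%) were higher and 1054 (8.73%) lower in total. A test of the difference between days gave 0 probe sets with limma at an adjusted p under 0.05, 839 (6.95%) at an unadjusted p under 0.05, and a smallest adjusted p of 0.207.

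Some large 14-day effects were small at 21 days, though their difference did not pass. glb3 stood at 2.46 at 14 and -0.32 at 21 days, sfp1 at -4.32 and -0.99, PIP2-6 at -2.61 and -0.14, and gst30 at -2.49 and 0.13. nph1 stood at 3.12 and 1.05, and GRF8 at 2.90 and 1.03. SBE1 (4.59 and 4.6), prcw1 (3.64 and 3.46) and TIP2-2 (-5.38 and -5.08) were nearly the same on both days. The smallest p for the difference among named genes were those of the histone gene H1, synonym his1 (0.44 and -1.26), ROA (0.55 and -2.72) and pht7 (-1.15 and 2.33), with limma adjusted p of 0.21, 0.31 and 0.31.

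**Figure D5:**
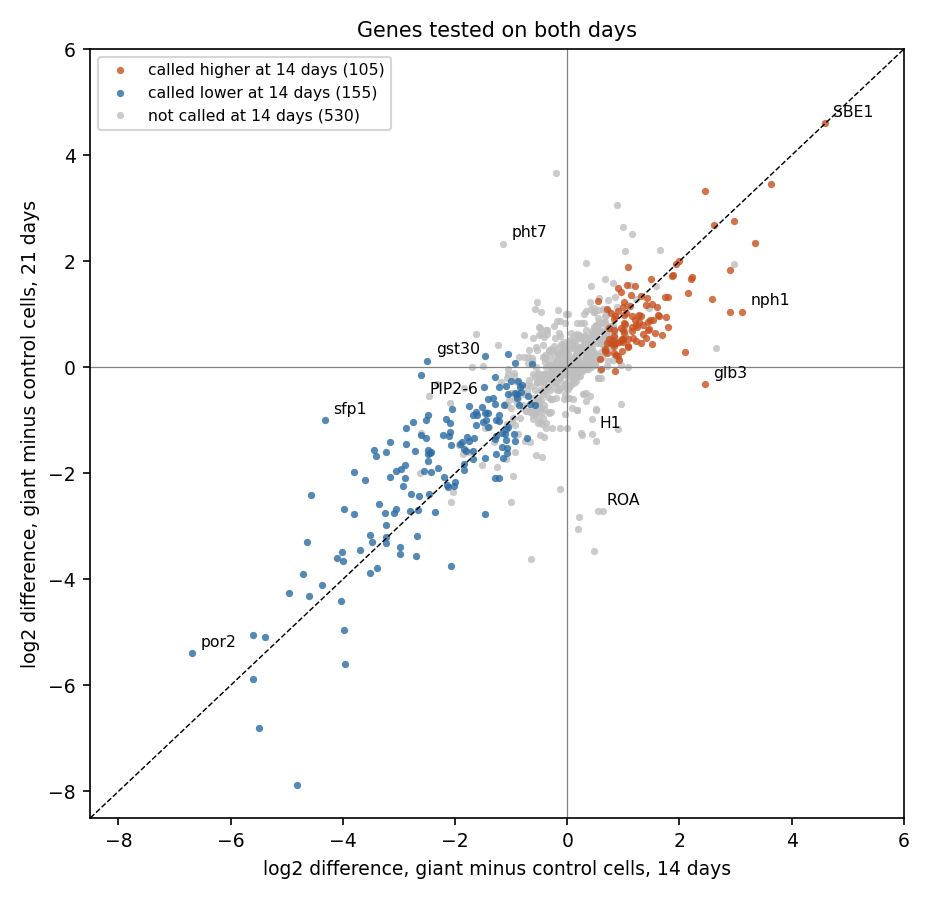
Log2 difference, giant minus control cells, at 14 days (x axis) and at 21 days (y axis) for the 790 genes tested, coloured by their call at 14 days (105 higher, 155 lower, 530 not called). The dashed line marks equal differences. Most called genes have the same sign on both axes, while glb3, PIP2-6 and gst30 lie close to 0 at 21 days.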

How the data were processed

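Laser-captured giant and control cells were profiled on 12 Affymetrix maize arrays, 3 in each group of 14 and 21 days. Per the labels' protocols, RNA was extracted with a PicoPure kit, amplified with NuGEN WT-Ovation Pico and labelled with the FL module. The deposited intensity values are MAS5 signals, made in Affymetrix Expression Console per the submitters' processing notes. Neither the scaling target nor scan dates nor a software version is stated in those notes or the labels. The trimmed mean of every array lay between 499.911 and 499.93. No batch label was available.

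The 113 control probe sets were set aside. Before log2, 9.5 was added to each signal as an offset (their 10th percentile), with no further normalization. Probe sets above the 40th percentile of the array on at least 3 arrays were kept. limma 3.58.1 in R 4.3.3 (lmFit, and eBayes with a variance trend) was fitted to all 4 groups, with contrasts of giant minus control cells at 14 days, at 21 days and their difference, and Benjamini-Hochberg adjustment over all probe sets at a threshold of 0.05. Replicates are described as biological, and nothing ties them to separate plants beyond that, so p-values measure the spread between these samples. The fit was tested on simulated data. The control measures were compared by a two-sided exact permutation test of 3 arrays against 3, whose smallest possible p is 0.1.

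Genes come from the platform annotation, and 1060 of 1108 were found in the RefSeq table by Gene ID. A gene is represented by its brightest single-gene probe set. The genes named are the 12 largest rises and falls with non-overlapping arrays, up to 4 members of each list with the smallest p, further called members, for the difference between days the 3 smallest p, and the 2 largest rises and falls among probe sets with no gene. Members named beyond this rule that were not called were chosen after their values were seen. The comparison, the members and the 38 lists and the marker lists were chosen with earlier results of these data known. Sequences were not used here. Alternatives were other offsets, filters, scalings and fits, each array of 14 days left out in turn, and both replicate 3 arrays left out.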

Additional observations from a re-analysis of the deposited data

How the results depend on the processing

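Probe sets higher and lower in giant cells at 14 days numbered 1872 and 1452 as reported. Scaling to the added transcripts gave 351 and 2413, where 1521 of the 1872 rises lost their call and 0 of the falls did; the scaling by construction lowers giant-cell values against control cells. Leaving out both replicate 3 arrays gave 680 and 664. Leaving out 1 array at a time gave 1179 to 1995 higher and 906 to 1361 lower, with the lowest of both without replicate 3 of giant cells; without replicate 3 of control cells 1235 were higher. The cause was not tested. Offsets of 1 and 50, no filter, a stricter filter, quantile normalization, no variance trend and the 6 arrays of 14 days alone stayed within 1.5 times of both counts. The number of probe sets that differed between days was 0 under every alternative that could test it. Same-numbered arrays of 14 days correlated at -0.01, -0.07 and 0.11 in their deviations from the group means. Differently numbered arrays ran from -0.12 to 0.17. These values cannot settle whether the numbers pair the samples, and both replicate 3 arrays shared high heat shock signals. With the replicate number as a block, 1724 were higher and 1399 lower. Of 443 genes examined one by one, PRO4 was the only called one whose sign turned under any of these settings, to -0.019 with the added-transcript scaling, and 40 lost and 52 gained their call there. Without both replicate 3 arrays 80 lost it and 4 gained it. In the other settings, where the stricter filter left some of these genes untested, between 0 and 49 lost it and between 0 and 30 gained it. Dim probe sets limit the rest, since signals near the offset of 9.5 compress a fold.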
